A study of Homo sapiens with 12 samples.

Results

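A group of 10 genes was chosen by its normalised values among 26231 genes, because the transcripts were present in leukaemia cells called SH2 and nearly missing from the control libraries of the same study. They are TRPM4, TAS1R1, RIMS4, FOXC1, GTSF1, CADM1, COL18A1, CRISP3, FRMD3 and ICAM3. They were found by gene name in the authors' normalised table, all 10 of 10 were present, and each name matched 1 row. Because the SH2 and control values chose them, the contrast between those cells is described here and was not tested for the members. The tests below concern what the choice did not use, which is the doxycycline response and the spread between cell preparations within SH2.

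All cells carried the label 697 (EU3), an established human B-cell precursor leukaemia line, and were sorted for high aldehyde dehydrogenase activity (ALDH+). SH2 cells hold a short hairpin RNA against IGF2BP1, an RNA-binding protein that stabilises bound mRNAs, which doxycycline switches on together with a green fluorescent reporter. The groups were SH2 with doxycycline, sorted as GFP-positive (n = 4), SH2 without doxycycline (n = 4), control with doxycycline (n = 2) and control without doxycycline (n = 2). The labels number 4 sets, each with its own ALDH+ selection and treatment, and the control was present in sets 2 and 4 only. The labels give neither the construct in the control cells nor whether SH2 is 1 clone. Everything comes from 1 line, so n counts cell preparations.

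The 10 genes span several jobs. TRPM4 is a calcium-activated channel for monovalent cations, and TAS1R1 is the receptor subunit that pairs with TAS1R3 in umami taste. CADM1 and ICAM3 are immunoglobulin-type adhesion molecules of the cell surface. COL18A1 encodes the basement membrane collagen that is the source of endostatin, and CRISP3 is a secreted cysteine-rich protein known from neutrophil granules, saliva and seminal fluid. RIMS4 belongs to the RIM family of the synaptic active zone, and FRMD3 carries the FERM domain of the protein 4.1 superfamily, which links membranes to the cytoskeleton. FOXC1 is a forkhead transcription factor of mesodermal development, and GTSF1 is a zinc-finger partner of PIWI proteins in the germ line of mice and flies. None of these is a classical B-lineage gene, but ICAM3 is widely known on resting leukocytes, lymphocytes included, so the working name of a non-B-lineage group does not hold for it.

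The 3′-end libraries held 2210291 to 3370952 reads assigned to genes. Levels are given as counts per 1000000 assigned reads (CPM), scaled by trimmed mean of M-values. A floor of 3 counts corresponds to 0.890 to 1.42 CPM per library, and to 0.283 CPM over the 4 control libraries together. IGF2BP1 itself was at 6.28, 14.8, 25.0 and 16.2 CPM in sets 1 to 4 of SH2 with doxycycline, against 21.7, 30.5, 39.2 and 32.9 CPM without it. It was lower with doxycycline in 4 of 4 sets, by 0.99 ± 0.43 on the log2 scale (SE), a difference that did not pass in edgeR (adjusted p = 0.983). In the control cells IGF2BP1 was at 0.961 and 0.382 CPM with doxycycline and at 1.42 and 0 CPM without it, so the hairpin's target was lower in control than in either SH2 group. The treated SH2 library of set 4 stood apart: its median correlation with the other SH2 libraries was 0.882, against 0.910 to 0.947 for the other 7 libraries.

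In SH2 each of the 10 genes was a moderately abundant transcript, and the control libraries held between 0 and 6 reads of it in total. A total of 4 had no control read at all. TRPM4 had 1154 reads in the 8 SH2 libraries and 0 in the 4 control libraries, which is at least 176-fold higher against a floor of 3 counts over the control group. TAS1R1 had 1056 reads in SH2 and 0 in control, CRISP3 778 and 0, and GTSF1 672 and 0. Their lower bounds were at least 161-fold, 118-fold and 102-fold higher.

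The other members had a few control reads. COL18A1 had 1191 reads in SH2 and 1 in control, FRMD3 1462 and 1, and CADM1 755 and 1. With 1 read the ratio is barely bounded: for CADM1 it was 345, with an exact 95% interval of 61.7 to 13635 that covers counting error only. FOXC1 had 1067 reads in SH2 and 2 in control, a ratio of 244 (67.3 to 2014). RIMS4 had 966 reads in SH2 and 3 in control, a ratio of 147 (50.2 to 714). ICAM3 was the exception in the control cells. It had 2094 reads in SH2 and 6 in control, a ratio of 159 (73.1 to 435), and all 6 control reads lay in the untreated control library of set 4, where they made 2.17 CPM.

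All 10 members were higher in every SH2 library than in any control library; 7.0% of 11968 genes tested did the same, and nothing is read from the members' count because that contrast chose them. Within single sets the contrast had the same form, which comes from the same counts and is no separate support. In set 2 the smallest bound or ratio was at least 53.1-fold (GTSF1), and in set 4 it was at least 24.9-fold (FRMD3). In bulk RNA, fewer cells that make a transcript and less transcript per cell cannot be told apart.

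**Figure D1:**
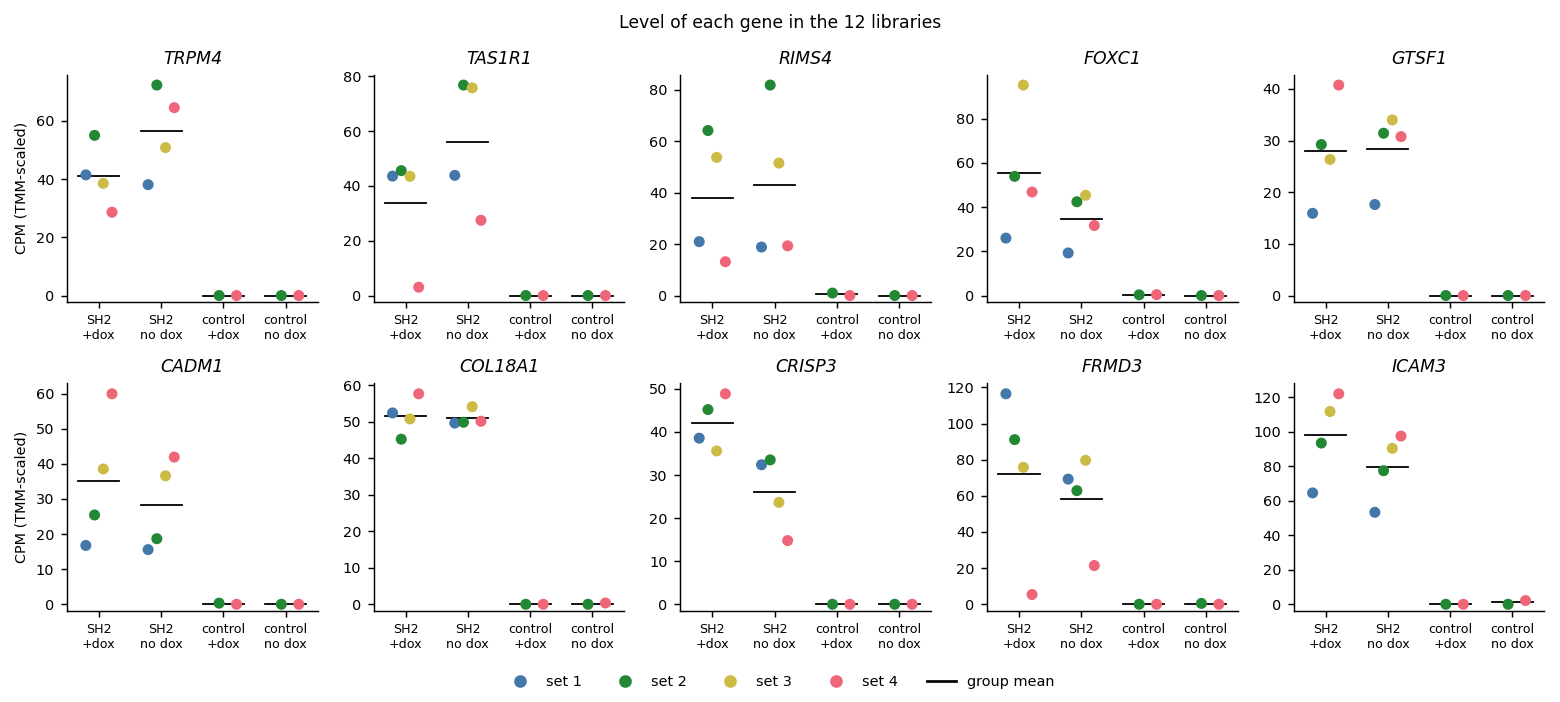
CPM on a linear axis, 1 panel per gene and 1 point per library coloured by set, with both SH2 groups left of both control groups and a bar at each group mean. SH2 libraries range from 3.03 CPM (TAS1R1, treated set 4) to 122 CPM (ICAM3, treated set 4), and no control library exceeds 2.17 CPM.

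Presence in SH2 with near absence in control was not confined to these genes. With a mean of at least 1 CPM in SH2 and at most 3 control reads in all, 358 of 26231 genes qualified, 148 of them with no control read and 207 with a read in all 8 SH2 libraries. The converse pattern held for 362 genes. Ranked by their SH2 reads, the leading 2 of the 358 were the immunoglobulin lambda constant genes IGLC7 (6342 reads in SH2 and 0 in control) and IGLC6 (1517 and 1), near-identical genes whose reads can be misassigned. FRMD3 was in place 3, ahead of TNFRSF18, a member of the tumour necrosis factor receptor family, in place 4. COL18A1 and TRPM4 held places 5 and 6, FOXC1 to CADM1 lay between places 8 and 12, and GTSF1 was in place 15. RIMS4, with 3 control reads, was just inside this limit, and ICAM3, with 6, was just outside.

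Doxycycline switched none of the 10 genes off, and none passed the test for a difference between treated and untreated SH2 cells. By edgeR's quasi-likelihood test on all 12 libraries, 0 of 10 members were called at an adjusted p under 0.05, against 0.0167% of 11968 genes (2 genes). At an unadjusted p under 0.05 there was 1 member, CRISP3, against a background of 4.88%. DESeq2 called 17 genes, of which 0 were members. The median log2 difference of the members was 0.16, beside 0.03 for all genes tested.

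CRISP3 had the smallest p. It was at 38.5, 45.2, 35.6 and 48.8 CPM in sets 1 to 4 with doxycycline, against 32.4, 33.5, 23.6 and 14.8 CPM without it. No treated library lay below an untreated one. It averaged 42.0 ± 6.06 CPM with doxycycline and 26.1 ± 8.72 CPM without it (SD over 4 libraries). The fitted log2 difference was 0.69 ± 0.30 (SE; edgeR adjusted p = 0.983). It was higher with doxycycline in 4 of 4 sets, with the widest gap in set 4.

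FOXC1 was also higher on average with doxycycline. It was at 25.97, 53.9, 95.2 and 46.8 CPM with doxycycline, against 19.3, 42.4, 45.3 and 31.7 CPM without it. Treated libraries were higher in 4 of 4 sets, yet the groups overlapped, with set 1 low and set 3 high in both. The log2 difference was 0.68 ± 0.37 (edgeR, adjusted p = 0.983).

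Among the surface genes, ICAM3 moved by nearly the same amount in each set. It was at 64.5, 93.4, 112 and 122 CPM in sets 1 to 4 with doxycycline, against 53.3, 77.4, 90.4 and 97.5 CPM without it. The log2 ratio of treated to untreated was 0.28, 0.27, 0.31 and 0.32 in sets 1 to 4, and the fitted difference was 0.30 ± 0.34 (edgeR, adjusted p = 0.986). CADM1 was also higher with doxycycline in 4 of 4 sets. It was at 16.8, 25.4, 38.5 and 60.0 CPM with doxycycline, against 15.6, 18.7, 36.6 and 41.9 CPM without it, a log2 difference of 0.32 ± 0.43 (edgeR, adjusted p = 0.986).

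The channel and the taste receptor subunit were lower on average with doxycycline. TAS1R1 was at 43.6, 45.6, 43.5 and 3.03 CPM in sets 1 to 4 with doxycycline, against 43.9, 76.8, 75.8 and 27.5 CPM without it. The treated value of set 4 rests on 9 reads. TAS1R1 was lower in 4 of 4 sets, by a log2 ratio of -0.01 in set 1 and -3.18 in set 4, and its fitted difference was -0.73 ± 0.60 (edgeR, adjusted p = 0.983). TRPM4 was at 41.5, 55.1, 38.5 and 28.6 CPM with doxycycline, against 38.1, 72.4, 50.9 and 64.6 CPM without it. It was lower in 3 of 4 sets, and the groups overlapped (log2 difference -0.47 ± 0.29, edgeR adjusted p = 0.983).

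The remaining members showed no common direction. FRMD3 was at 116, 91.1, 75.8 and 5.39 CPM with doxycycline, against 69.3, 62.9, 79.7 and 21.4 CPM without it. It was higher with doxycycline in sets 1 and 2 and lower in set 4, where the treated value rests on 16 reads. RIMS4 was at 20.9, 64.2, 53.7 and 13.1 CPM with doxycycline, against 18.9, 81.8, 51.5 and 19.3 CPM without it. Its 2 groups overlapped throughout. GTSF1 averaged 28.1 ± 10.2 CPM with doxycycline and 28.5 ± 7.36 CPM without it, and COL18A1 51.5 ± 5.11 and 50.9 ± 2.14 CPM (SD, n = 4 each).

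Of the 10 members, 5 moved the same way in all 4 sets: FOXC1, CADM1, CRISP3 and ICAM3 were higher with doxycycline and TAS1R1 was lower. In 20.7% of genes tested all 4 sets had the same direction, and in 10.6% all 4 were higher with doxycycline, against 4 of 10 members. With the set as a block, 3 members had an unadjusted p under 0.05 in edgeR (FOXC1 0.0147, CRISP3 0.0226 and TAS1R1 0.0314) against 9.17% of genes. Their adjusted p-values were 0.450, 0.468 and 0.494, so 0 members were called, against 0.0501% of genes (6 genes). The members' median log2 difference was -0.01 in that fit, of opposite sign to the 0.16 above.

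**Figure D2:**
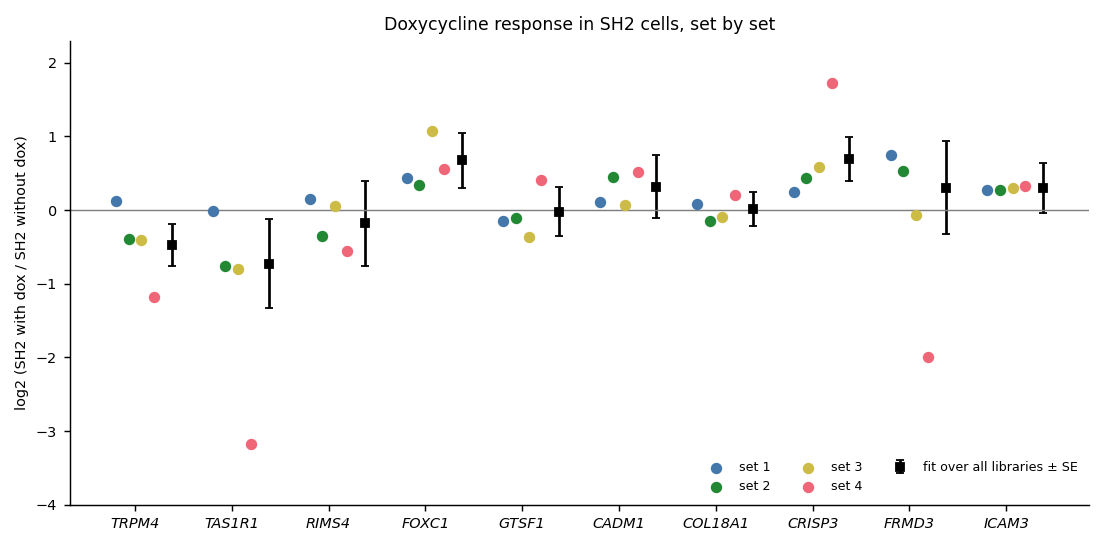
Log2 ratio of SH2 with doxycycline to SH2 without it, for each of the 10 genes, with 1 coloured point per set, a black square with SE bars for the edgeR fit, and a line at 0 for no difference. The 4 ICAM3 points lie between 0.27 and 0.32, while those of TAS1R1 run from -3.18 to -0.01 and those of FRMD3 from -1.99 to 0.75.

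Some of the genes differed among the cell preparations, and others did not pass. Across the 8 SH2 libraries COL18A1 was nearly level, with a coefficient of variation of 7.12% and a highest library 1.27 times the lowest. At the other end, TAS1R1 spanned 25.3-fold and FRMD3 21.6-fold from its highest to its lowest library, and the coefficient of variation of RIMS4 was 63.5%. Differences among the 4 sets were tested in the SH2 libraries with a term for doxycycline, by an F test over 3 set terms in edgeR. Of 10 members, 4 were called (RIMS4, CADM1, FOXC1 and FRMD3), against 9.62% of 10355 genes, and 7 of 10 had an unadjusted p under 0.05, against 30.6%. The median span between the highest and lowest set was 1.34 on the log2 scale for members and 0.87 for all genes tested.

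RIMS4 differed most clearly among sets. Its set means were 19.9, 73.0, 52.6 and 16.2 CPM in sets 1 to 4, with sets 2 and 3 high in treated and untreated libraries alike (span 2.16 on the log2 scale, edgeR adjusted p = 0.0077). CADM1 was lowest in set 1 and highest in set 4, at 16.2, 22.1, 37.6 and 51.0 CPM (span 1.64, edgeR adjusted p = 0.0212). FOXC1 was lowest in set 1 and highest in set 3, at 22.6, 48.2, 70.3 and 39.3 CPM (span 1.58, edgeR adjusted p = 0.0338).

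FRMD3 was low in set 4 alone. Its set means were 92.9, 77.0, 77.7 and 13.4 CPM (span 2.78, edgeR adjusted p = 0.0409). TAS1R1 had a like profile, 43.7, 61.2, 59.6 and 15.2 CPM, without passing (span 2.19, edgeR adjusted p = 0.0804). ICAM3 had set means of 58.9, 85.4, 101 and 110 CPM (adjusted p = 0.101), and GTSF1 16.8, 30.3, 30.2 and 35.8 CPM (adjusted p = 0.130). TRPM4, CRISP3 and COL18A1 had adjusted p-values of 0.396, 0.682 and 0.926 in that edgeR fit.

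These calls depended on single libraries. Each set holds 1 treated and 1 untreated SH2 library. When the treated library of set 1, 2, 3 or 4 was omitted, the members called were 0, 2, 0 and 7, against 0.0187%, 5.29%, 0.0% and 32.9% of all genes. When the untreated one was omitted they were 0, 2, 0 and 8, against 0.0187%, 5.63%, 0.0% and 48.7%. Both set 2 omissions kept RIMS4 and CADM1. The count over all genes moved just as far, from 0 without either library of set 3 to 5143 without the untreated library of set 4. DESeq2's likelihood ratio test called 1487 genes (14.4%) and added TAS1R1 (adjusted p = 0.00431). Without the doxycycline term, where 5.3% of genes were called, FOXC1 was not (edgeR adjusted p = 0.0944).

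**Figure D3:**
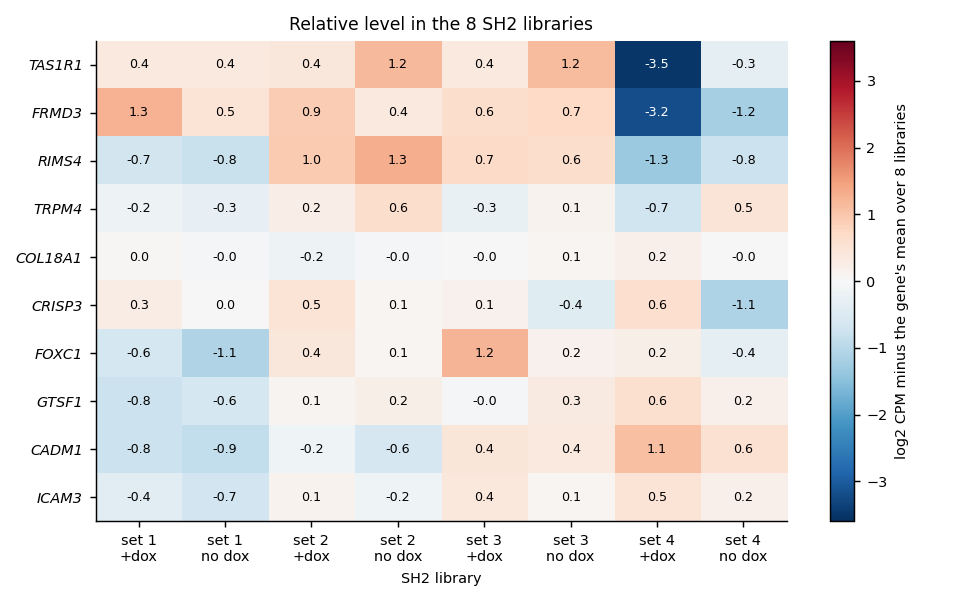
Log2 CPM of each gene in each SH2 library minus that gene's mean over the 8 SH2 libraries, with treated and untreated libraries side by side within each set and colour and printed value giving the difference. TAS1R1 and FRMD3 are far below their means in the treated library of set 4, where CADM1, ICAM3 and GTSF1 are above theirs, and COL18A1 is nearly flat.

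The genes did not vary as a block. Over the 8 SH2 libraries, 21 of 45 pairs of members had a Pearson correlation of log2 CPM below 0 and 3 pairs were over 0.8, with a median of 0.041. The 3 were CADM1 with ICAM3 (0.917), TAS1R1 with FRMD3 (0.902) and GTSF1 with ICAM3 (0.816). CADM1 and FRMD3 ran opposite ways (-0.729). These are descriptions over libraries that share set and treatment. The treated library of set 4 held the highest SH2 value of GTSF1, CADM1, COL18A1, CRISP3 and ICAM3 and the lowest of TRPM4, TAS1R1, RIMS4 and FRMD3, which is 9 of 10 members, against 50.1% of 10355 genes. The part of that library in the correlations was not tested.

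Other genes matched these profiles closely. Among 10812 other genes whose log2 CPM averaged 1 or more in the SH2 libraries, the profile of TAS1R1 was nearest to those of H19, an imprinted non-coding RNA (r = 0.982), and FCER1G, the common Fc receptor gamma chain (0.979). FRMD3 was nearest to NCAPH, a condensin subunit (0.990), and PLCG1, a phospholipase C (0.988). CADM1 was nearest to ATP6V1D, a subunit of the vacuolar proton pump (0.995), and to the pseudogene MED15P9 (0.992). ICAM3 was nearest to PSAP, the saposin precursor (0.984), and BNIP2 (0.980), and GTSF1 to NUPL1, a nucleoporin (0.992), and KDELR2, a receptor that returns proteins to the endoplasmic reticulum (0.978).

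For FOXC1 the nearest were NT5C, a nucleotidase, and FOXO1, another forkhead factor (0.962 each). RIMS4 was nearest to C16orf58 (0.977) and CLPB (0.954), CRISP3 to BLMH (0.975) and FGD5P1 (0.974), COL18A1 to TAF1A (0.976) and NXT2 (0.970). TRPM4 was nearest to COX7A2L (0.978) and to ZBTB48 (0.958); ZBTB48 lies beside TAS1R1. With 8 libraries a high correlation is easily reached: 191 genes were over 0.9 with FRMD3, 160 with CADM1 and 10 with TRPM4.

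The promoters of 2 of the 3 pairs with a correlation over 0.8 are shown to let their letters be compared: TAS1R1 with FRMD3, and GTSF1 with ICAM3. The strongest pair, CADM1 with ICAM3, could not be shown because CADM1 had no promoter entry. FRMD3 had 4 listed starts and ICAM3 had 3, and 1 window of each is shown. RefSeq promoter windows on GRCh38.p14, each 300 bases from 250 before to 50 after a gene's start, were found for 8 of 10 members; RIMS4 and CADM1 had no entry. Capitals mark E boxes (CANNTG, which reads alike on both strands). The windows are chr1:6555057-6555356 (plus strand) for TAS1R1, chr9:83538352-83538651 (minus strand) for FRMD3, chr12:54473553-54473852 (minus strand) for GTSF1 and chr19:10339575-10339874 (minus strand) for ICAM3.
TAS1R1: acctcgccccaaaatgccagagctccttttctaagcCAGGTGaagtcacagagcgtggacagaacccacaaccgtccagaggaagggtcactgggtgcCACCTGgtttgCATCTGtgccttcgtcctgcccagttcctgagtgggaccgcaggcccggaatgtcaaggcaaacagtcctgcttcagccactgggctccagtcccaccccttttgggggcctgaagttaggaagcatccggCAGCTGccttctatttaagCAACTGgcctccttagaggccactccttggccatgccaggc
FRMD3: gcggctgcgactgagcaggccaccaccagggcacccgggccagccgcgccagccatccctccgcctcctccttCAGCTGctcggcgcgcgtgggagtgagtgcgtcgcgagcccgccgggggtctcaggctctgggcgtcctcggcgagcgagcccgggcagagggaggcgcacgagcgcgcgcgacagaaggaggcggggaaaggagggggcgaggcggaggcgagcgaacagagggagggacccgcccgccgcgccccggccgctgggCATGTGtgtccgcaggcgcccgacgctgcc
GTSF1: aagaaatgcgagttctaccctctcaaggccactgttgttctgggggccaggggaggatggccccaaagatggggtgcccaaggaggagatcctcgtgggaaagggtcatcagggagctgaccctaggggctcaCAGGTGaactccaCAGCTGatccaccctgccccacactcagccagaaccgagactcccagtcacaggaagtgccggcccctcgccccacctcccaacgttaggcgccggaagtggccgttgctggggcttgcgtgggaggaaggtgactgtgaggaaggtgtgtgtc
ICAM3: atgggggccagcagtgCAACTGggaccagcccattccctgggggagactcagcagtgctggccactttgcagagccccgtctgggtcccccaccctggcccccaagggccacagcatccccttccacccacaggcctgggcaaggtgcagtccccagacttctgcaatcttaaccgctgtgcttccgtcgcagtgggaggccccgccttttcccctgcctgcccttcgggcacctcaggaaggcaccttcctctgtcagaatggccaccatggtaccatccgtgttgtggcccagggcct

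The windows shown for TAS1R1 and FRMD3 were unlike, though their profiles were alike. The TAS1R1 window held 5 E boxes and 7 CpG dinucleotides, and the FRMD3 window 2 E boxes and 41 CpG. GTSF1 held 2 E boxes and 10 CpG, and ICAM3 1 E box and 7 CpG. E boxes, the motif bound by basic helix-loop-helix factors, were in 5 of 8 member windows and in 68.9% of all 27305 windows. A GC box (GGGCGG, either strand) was in 4 of 8 and in 44.6% of all windows. TATAAA on either strand was in 0 of 8 members and 12.0% of all windows, and TGATTGAT, a PBX-type site, in 0 of 8 and 0.535%. None of these 4 motifs contains another.

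CpG content was mixed among the members. Observed over expected CpG was 1.02 for FOXC1, 0.928 for FRMD3, 0.897 for COL18A1 and 0.586 for TRPM4, and it was lower in GTSF1 (0.349), TAS1R1 (0.274), ICAM3 (0.227) and CRISP3 (0.118). The median of all windows was 0.580. A motif match is a run of letters and was not tested as a binding site.

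The genes lie on 8 chromosomes, so their neighbours were examined (positions from GENCODE v29, GRCh38). TRPM4 spans chr19:49157741-49211836 on the plus strand and ICAM3 chr19:10333776-10339823 on the minus strand of the same chromosome. FOXC1 is at chr6:1609972-1613897 (plus) and CRISP3 at chr6:49727384-49744437 (minus). TAS1R1 is at chr1:6555181-6579757 (plus), RIMS4 at chr20:44751808-44810338 (minus), and GTSF1 at chr12:54455950-54473602 (minus). CADM1 is at chr11:115169218-115504957 (minus), COL18A1 at chr21:45405137-45513720 (plus), and FRMD3 at chr9:83242990-83538546 (minus). Libraries of this kind read the 3′ ends of transcripts, so a count cannot show which promoter or isoform was used.

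The protein-coding neighbours were compared between SH2 and control. Those with enough reads were too few to tell their calls from the shares of all genes. Of 20 flanking genes, 13 had enough reads to test, and 1 was higher in SH2 than in control and 0 lower, against 10.5% higher and 11.4% lower of all genes tested. The 1 was POFUT2, a protein O-fucosyltransferase on the left of COL18A1, at 28.6 CPM in SH2 and 11.9 CPM in control (log2 difference 1.26 ± 0.36, edgeR adjusted p = 0.0208). Its call was lost when the treated control of set 2 (0.0786) or set 4 (0.0655) or the untreated one of set 2 (0.112) was omitted.

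The genes close to TAS1R1 and ICAM3 had reads in the control cells too, except RAVER1, which was under the floor of 3 counts there. ZBTB48, a telomere-binding zinc-finger gene, starts 244 bases to the right of TAS1R1 on the same strand. It was at 18.8 CPM in SH2 and 10.2 CPM in control (log2 difference 0.90 ± 0.33, edgeR adjusted p = 0.0661, and 0.0196 with the set as a block). NOL9, an RNA kinase gene 646 bases to the left, was at 19.5 and 21.96 CPM (adjusted p = 0.621). Beside the ICAM3 gene, RAVER1 is 136 bases away and had 7 reads in SH2 and 1 in control, and TYK2 on the other side was at 33.01 CPM in SH2 and 32.3 CPM in control.

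Overlapping genes were a further check on COL18A1. SLC19A1, the reduced folate carrier, overlaps it on the opposite strand, and the strand setting of the counting is not given in the sources used here. SLC19A1 had 474 reads in SH2 and 256 in control, at 20.5 and 24.4 CPM (adjusted p = 0.603), while COL18A1 had 1 control read. An antisense transcript at ICAM3, AC114271.2, had 22 reads in SH2 and 28 in control. KCNK15, which overlaps RIMS4, had 0 in both.

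Relatives and partners of the 10 genes, 210 in 9 lists, showed whether whole families were on. Of the 90 with enough reads, 11 were higher in SH2 than in control and 14 lower, against 10.5% and 11.4% of all genes tested, and 0 were called for doxycycline. Rose and fell stand for an adjusted p under 0.05 in edgeR, with the log2 difference and its SE in brackets. The same shares of all genes apply to each list below, where counts are small and no list was tested as a set. Of the 210, 5 had the members' pattern of at least 1 CPM in SH2 and at most 3 control reads: FOXL1, FOXP2, MOV10L1, LAMA3 and LAMA5. By the same rule 358 of 26231 genes qualified, and nothing is read from the 5 as a group.

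Among taste and TRP channel genes, the called ones were channels. Of 9 tested, 1 rose and 3 fell in SH2 relative to control. The calcium-permeable channel genes MCOLN2 (18.5 CPM in SH2 and 95.3 CPM in control, log2 difference -2.38 ± 0.25) and TRPV2 (6.58 and 25.5 CPM, -1.92 ± 0.29) fell, as did the inositol trisphosphate receptor gene ITPR3 (28.04 and 67.98 CPM, -1.30 ± 0.24). TRPM2, a calcium-permeable relative of TRPM4, rose (14.9 and 4.91 CPM, 1.64 ± 0.40), and its call was lost without the treated set 2 control (edgeR adjusted p = 0.0529) and in sets 2 and 4 alone (0.0527). TAS1R3, the obligate partner of TAS1R1 in the umami receptor, was too low to test, at 1.74 CPM in SH2 and 1.07 CPM in control. Its 41 reads in SH2 and 12 in control made a depth-scaled ratio of 1.56, with an interval (0.804 to 3.26) that includes no difference. TRPM5, the channel nearest to TRPM4 in sequence and part of taste signalling, had 0 reads in both.

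In the active zone list, 2 other RIM genes were on in both kinds of cell, while RIMS1 had 8 reads in SH2 and 1 in control. RIMS3 was at 125 CPM in SH2 and 92.8 CPM in control, and RIMS2 at 16.6 and 8.27 CPM (edgeR adjusted p = 0.371 and 0.232). Of 14 genes tested, 1 rose and 3 fell. Those that fell included the RIM-binding protein gene BZRAP1 (35.0 CPM in SH2 and 206 CPM in control, -2.58 ± 0.57) and the vesicle GTPase gene RAB3A (1.31 and 10.2 CPM, -3.08 ± 0.70). BZRAP1 was not called in the blocked fit (edgeR adjusted p = 0.159) or in sets 2 and 4 alone (0.0719). Its control libraries ran from 37.8 to 398 CPM. Its call was also lost without the untreated set 2 control (log2 difference -1.67) or the treated one (-1.32). RAB3A was not called without the treated control library of set 4 (log2 difference -2.47). RAB3D, another vesicle GTPase gene, rose (37.3 and 14.7 CPM, 1.34 ± 0.35), and was not called with the treated (0.0601) or untreated (0.0667) set 4 control omitted.

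Forkhead genes rose in 4 of 16 tested and fell in 0, against 10.5% and 11.4% of all genes tested. FOXL1, a mesenchymal forkhead gene, had 105 reads in SH2 and 0 in control, at least 16.0-fold higher. FOXP2, best known from speech-related brain circuits, had 185 and 2 reads, a ratio of 42.2 (11.5 to 351). FOXO1, a factor of early B-cell development, was at 105 CPM in SH2 and 21.6 CPM in control (2.28 ± 0.37). FOXP1 also rose (354 and 201 CPM, 0.82 ± 0.23), but was not called without the treated (0.100) or untreated (0.0963) set 2 control or the untreated set 4 control (0.0588). With the set as a block 1 forkhead gene fell beside the 4 that rose. The nearest forkhead gene to FOXC1 on its chromosome, FOXF2, had 0 reads in both.

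Basement membrane genes rose in 4 of 14 tested and fell in 1, and the 4 became 2 when the treated or untreated control of set 2, or the untreated SH2 library of set 4, was omitted. LAMA5, a laminin alpha chain, had 613 reads in SH2 and 2 in control, a ratio of 140 (38.6 to 1158), and P4HB, a subunit of the enzyme that hydroxylates collagen prolines, was at 759 CPM in SH2 and 290.0 CPM in control (1.39 ± 0.31). The laminin gamma chain gene LAMC1 (48.6 and 30.96 CPM) and the lysyl hydroxylase gene PLOD3 (57.7 and 22.4 CPM) were the others that rose. With each library omitted in turn, LAMC1 lost its call in 8 of 12 fits and PLOD3 in 5 of 12. For both genes these included the fits without the treated or untreated set 2 control. The log2 difference ran from 0.48 to 0.82 for LAMC1 and from 0.98 to 1.69 for PLOD3. PLOD2, a collagen lysyl hydroxylase, had 3 reads in SH2 and 37 in control (-4.87 ± 1.01), a call lost without the untreated control library of set 4 (adjusted p = 0.143).

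ICAM and integrin genes rose in 0 of 9 tested and fell in 4, which became 2 without the untreated set 4 control. ITGAL, the alpha subunit of the integrin LFA-1 to which ICAM3 binds, was at 2.65 CPM in SH2 and 40.4 CPM in control (-3.89 ± 0.27). The direction of ICAM3 itself was fixed by the choice of the members. VCAM1, an adhesion ligand of another integrin, had 0 reads in SH2 and 49 in control. ICAM2 was at 79.4 CPM in SH2 and 88.9 CPM in control (edgeR adjusted p = 0.698). CD58, the ligand of CD2, was at 6.21 and 16.0 CPM (-1.38 ± 0.36), a call lost when either set 4 control was omitted, the treated one (0.0723) or the untreated one (0.0777). ICAM1, an inducible LFA-1 ligand, was at 12.5 and 30.3 CPM (-1.21 ± 0.36), and its call was lost without the same controls (0.0929 and 0.123) or the untreated SH2 library of set 2 (0.0519).

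The last 4 lists held fewer calls. In the CADM and nectin list 0 of 7 rose and 1 fell, the nectin gene PVRL1 (33.9 CPM in SH2 and 101 CPM in control, -1.62 ± 0.33), and 2 fell with the set as a block or with either set 4 control omitted. FERM genes rose in 1 of 13 and fell in 2. RDX, the radixin gene that ties actin to the membrane, was at 99.9 CPM in SH2 and 21.97 CPM in control (2.18 ± 0.25). FRMD4A (1.004 and 8.81 CPM) and EPB41L1 (2.44 and 8.92 CPM) fell, with calls that depended on single control libraries: FRMD4A was lost without the untreated one of set 2 (0.169), and EPB41L1 without either set 4 control, treated (0.0553) or untreated (0.0629).

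In the piRNA list, around the PIWI proteins that GTSF1 assists, 0 of 7 tested genes were called. With the set as a block 1 fell, and 1 rose when any single control library was omitted. PIWIL2 was at 4.61 CPM in SH2 and 2.297 CPM in control, and the germ-line genes PIWIL3, DDX4 and TDRD1 had no reads. MOV10L1, the piRNA helicase gene, had 40 reads in SH2 and 0 in control, at least 6.09-fold higher, and was too low to test. In the CAP family of CRISP3, GLIPR2 alone could be tested and was not called (3.96 and 7.82 CPM), and CRISP2, the gene beside CRISP3, had 2 reads in SH2 and 0 in control.

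**Figure D4:**
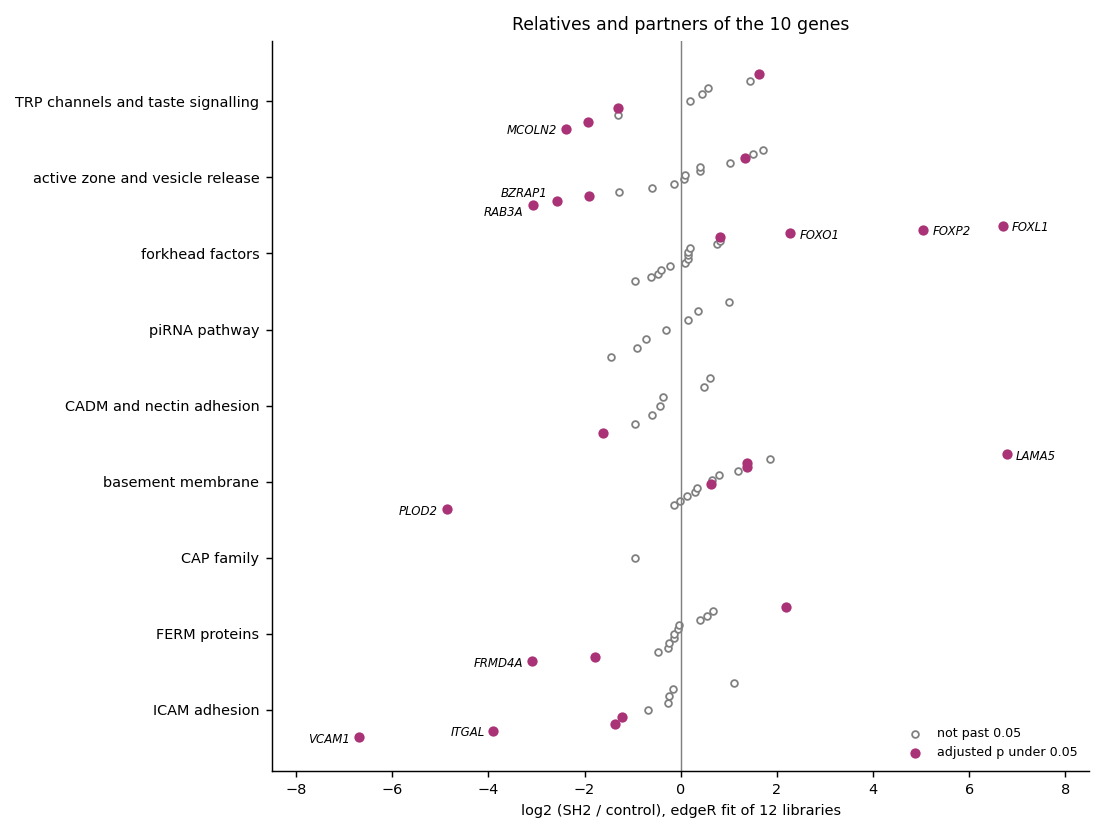
Log2 difference of SH2 over control, from the edgeR fit of 12 libraries, for the 90 relatives and partners with enough reads, by list, with filled points for an adjusted p under 0.05 and names for the widest. Of these, 11 filled points lie right of 0 and 14 left of it, with LAMA5, FOXL1 and FOXP2 on the right and VCAM1, PLOD2 and ITGAL on the left.

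Markers of other cell types were read beside the members, and their part in the members' levels was not tested. Of 23 B-lineage genes, all tested, 2 rose and 10 fell in SH2 relative to control, against 10.5% and 11.4% of all genes tested. Their sums were 1723 to 4313 CPM in SH2 and 3655 to 5043 CPM in control. The 2 that rose, TCL1A (379 CPM in SH2 and 162 CPM in control) and IRF4 (50.0 and 23.1 CPM), both lost their call without the treated (0.120 and 0.0757) or untreated (0.147 and 0.0770) set 2 control and in sets 2 and 4 alone (0.0857 and 0.0693). Without the treated SH2 library of set 4, 4 rose. By DESeq2 4 rose and 10 fell, and without the count filter 8 rose and 10 fell. The fallen ones included SPIB (4.95 CPM in SH2 and 329 CPM in control), CIITA (13.6 and 126 CPM) and CD37 (44.4 and 381 CPM). Among the genes not called, CD79B and PAX5 had lower means in SH2 and all others had higher means. The higher ones included DNTT (558 CPM in SH2 and 313 CPM in control), VPREB1 (207 and 90.5 CPM) and EBF1 (75.6 and 38.3 CPM). Of 20 T and NK cell genes 13 were tested, 2 rose and 7 fell, with sums of 216 to 522 CPM in SH2 and 247 to 2197 CPM in control. CD3E had 2 reads in SH2 and 564 in control, where its libraries ran from 1.91 to 103 CPM. The control libraries also ranged widely for CD3D (8.79 to 241 CPM) and TRBC2 (70.7 to 1284 CPM). ZAP70 was 1 of the 2 that rose (42.3 CPM in SH2 and 12.3 CPM in control, 1.81 ± 0.29). Of the 7, CD3D and LCK were not called with the set as a block (0.134 and 0.0985), and without the treated set 2 control the 7 became 4, with CD3D, LCK and CD5 lost (0.203, 0.0786 and 0.9998). Of the 2 that rose, CD7 lost its call without the treated (0.0754) or untreated (0.0564) set 4 control.

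Of 20 myeloid genes 2 were tested and both rose: CD33 had 171 reads in SH2 and 6 in control, and LYZ 75 and 1. LYZ was not called without 1 of 3 control libraries (adjusted p = 0.0607, 0.0638 and 0.0670 in turn). The myeloid sums were 7.96 to 29.6 CPM in SH2 and 6.09 to 16.6 CPM in control, and the neutrophil granule genes ELANE, AZU1 and PRTN3 had no reads. Other granule genes were low: CTSG had 13 reads in SH2 and 16 in control, LTF 9 and 0, MPO 5 and 1, and CAMP 6 and 17.

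Epithelial, neuronal and mesenchymal markers were read for the tissues in which several members are better known. Of 18 epithelial genes 2 were tested and 1 fell (ST14), with sums of 52.4 to 81.2 CPM in SH2 and 138 to 195 CPM in control; KRT5, KRT14 and CLDN3 had no reads. With the treated set 4 control omitted 2 epithelial genes fell, and with the untreated one 1 rose and 2 fell. ST14 made up most of these sums, at 53.6 CPM in SH2 and 148 CPM in control. Too low to test, CLDN7 had 47 reads in SH2 and 2 in control, a ratio of 10.7 (2.81 to 91.2) with the members' pattern, and ELF3 had 49 and 5, a ratio of 4.48 (1.79 to 14.4). Of 18 neuronal genes 3 were tested and 1 fell (UCHL1), with 42.2 to 133 CPM in SH2 and 123 to 291 CPM in control; SNAP25, STMN2 and DCX had no reads. Of 18 mesenchymal genes 6 were tested and 1 fell (COL1A1), with 15.5 to 76.1 CPM in SH2 and 33.2 to 72.7 CPM in control; DCN, LUM and PDGFRA had no reads, and 2 fell without the treated SH2 library of set 4.

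Germ-line and erythroid lists had 1 gene each that could be tested, and 0 were called. The germ-line sum was 3.26 to 9.84 CPM in SH2 and 5.73 to 9.97 CPM in control, with DAZL and DDX4 without a read. The erythroid and megakaryocyte sum was 3.26 to 7.07 CPM in SH2 and 5.42 to 8.79 CPM in control, with GATA1 without a read. No list held a gene called for doxycycline.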

How the data were processed

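RNA 3′ ends were sequenced (QuantSeq forward) in 12 libraries. The authors deposited raw read counts per gene (HTSeq, after STAR, GRCh38, per the submitters' processing notes; versions not given in the sources used here) and a table of signal values for 26231 named genes, which are those counts divided by 1 factor per library. Of the deposited signal values, 100% came out as whole reads (tolerance 0.01), and edgeR on the recovered reads called 2 genes for doxycycline. Reads that mapped to more than 1 place were 42.2 to 63.8%, those in no gene 3.25 to 7.73% and ambiguous ones 1.11 to 1.62%; all were left out.

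Counts of 64253 gene IDs were fitted with edgeR 4.0.16 in R 4.3.3 (robust quasi-likelihood, trimmed mean of M-values, a count minimum of 10 in filterByExpr, 1 term per group over 12 libraries), with Benjamini-Hochberg adjustment over all genes tested and calls at an adjusted p under 0.05. The common biological coefficient of variation was 0.376. Sets were compared in the 8 SH2 libraries with a doxycycline term. DESeq2 1.42.0, other scalings, no filter, a set block and omitted libraries were alternatives, and the scripts were tested on simulated data. Libraries of 1 group differed by more than counting noise (chi-square over degrees of freedom at least 8.39).

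The set numbers pair treated and untreated SH2 libraries: their deviations from group means correlated at 0.650, 0.182, 0.518 and 0.338 in sets 1 to 4. Treated and untreated libraries of unlike sets correlated at -0.544 to 0.267. The value of set 2 lay inside that range, so it does not bear out the pairing of that set. In the fits with 1 term per group, p-values measure the spread among libraries of a group. There the treated and untreated libraries of a set counted as independent, so the 4 control libraries stand for 2 sets. In the test among sets and in the blocked fit, they measure the spread left within sets. All libraries are preparations of 1 line. The 10 members and the 17 gene lists were chosen with earlier results of these data known. All members were described, and from each list up to 3 called genes by smallest p were named, plus direct partners, defining markers and close neighbours, some chosen after their values were seen; some list genes are not reported here. Profile likeness was Pearson's r of log2 CPM with a prior count of 2, and the 2 nearest genes were named.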

Additional observations from a re-analysis of the deposited data

Results flagged for a closer look

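Each member was examined for a library far from the others of its group in the 2 SH2 groups of 4, by Dixon's ratio of the gap to the range. With IGF2BP1 included this made 22 groups, and chance flags about 1 in 20. TAS1R1 had its lowest treated SH2 library in set 4, at 3.03 CPM, against 43.5 to 45.6 CPM in the other 3 treated libraries (ratio 0.951). COL18A1 had its highest untreated SH2 library in set 3, at 54.1 CPM, against 49.6 to 50.1 CPM in the other 3 (ratio 0.889).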

How the results depend on the processing

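Every SH2 library was above every control library for 10 of 10 members in all settings tried. That contrast chose the members, and omitting a library cannot undo a full separation, so nothing is read from it. With the untreated set 4 control omitted, COL18A1 had no control read and its log2 ratio became a bound of 7.07, and that of ICAM3 became 7.88. For doxycycline in SH2, 2 genes were called in the main design, 17 by DESeq2, 47 without the count filter, 0 with SH2 libraries alone and 1 without both SH2 libraries of set 4, a setting chosen after seeing the data; omitting 1 library gave 0 to 3, and 0 members were called in any of these. Paired by set with a replicate block, 6 genes were called; beside calls named above, the block changed no member's call. Signs that turned were those of small differences: COL18A1 (-0.051 without both set 4 libraries, -0.0042 without the filter, -0.042 to 0.074 with 1 library omitted), FRMD3 (-0.037 with the block, -0.022 to 0.70), RIMS4 (-0.55 to 0.34), GTSF1 (-0.26 to 0.17) and CADM1 (-0.065 to 0.57). Among sets, 996 genes differed, 549 without the doxycycline term and 2704 without the filter, and 0 to 5143 with 1 library omitted, with 0 to 8 members called. With 1 library omitted, its set has a lone sample, assumed to vary like the others. SH2 and control differed in 2624 genes, 1714 in sets 2 and 4 alone and 1727 to 2984 with 1 library omitted, the 1727 with the untreated set 2 control omitted. The cause of these changes was not tested. Depth limits statements on genes at or under the floor of 3 counts.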
